A study of Cricetulus griseus with 10 samples.

Results

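The transcriptomes of CHO-K1 cells at passage 10 of a suspension adaptation were compared with those at passage 0, the last and first passages sampled. CHO-K1 is an established epithelial-like ovary line of the Chinese hamster, used widely to make recombinant proteins. The comparison rests on 4 of the 10 libraries of the series, 2 at passage 10 (P10) and 2 at passage 0 (P0), and the other 6 libraries, 2 each at passages 2, 4 and 6 (P2, P4 and P6), entered the fit that sets the spread per gene. All libraries were labelled wild type and came from 1 line, and no transgene or agent other than the adaptation was named for any group. The medium named for the adaptation is SFM4CHO, a serum-free medium. The labels do not say how the cells of P0 were grown, nor whether the duplicates of a passage were separate cultures, so the p-values measure the spread between these libraries, which may be technical. Of 25156 features in the deposited table, 13521 had a mean of at least 10 normalised reads over the 10 libraries and were tested, and 11034 of those carried a proper gene symbol. The named features nearest to that limit were Tfcp2l1, kept with a mean of 10.0 and values of 12.2 and 7.19 at P0 and 5.91 and 5.46 at P10, and Kif1a, left out with a mean of 9.999 and values of 6.10 and 4.31 at P0 and 23.6 and 2.34 at P10.

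Adherent cells hold on to the matrix through integrins, which gather adaptor proteins and actin at focal adhesions, and they receive growth factors, adhesion proteins and lipids from serum. Cells growing singly in a serum-free medium lack a substrate and must make their own sterols and fatty acids or take them from the medium. Serum and adhesion both act through immediate early genes, transcription factor genes that are switched on within minutes of a stimulus and switched off again. The sterol pathway is controlled by sterol-sensing proteins of the endoplasmic reticulum, which release a transcription factor when cholesterol is low. These points are background, and none of them was measured here.

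The 2 P10 libraries lay far apart, and this governs how each result below can be read. Their log2 values differed by 0.92 in root mean square over the 13521 features, against 0.38 between the P0 libraries, and 3306 features (24.5%) were at least 2-fold apart between them against 293 (2.17%) at P0. P10 replicate 1 lay nearest to the P6 libraries (0.53 and 0.56), while P10 replicate 2 lay nearest to the P4 libraries (0.51 and 0.54) and was 1.17 away from P6 replicate 2. Both P10 libraries were far from P0, at 1.04 for replicate 1 against each P0 library, and at 0.87 and 0.84 for replicate 2. The 10 most abundant features took 3.52% of the normalised reads in P10 replicate 1 and 18.7% in replicate 2, against 15.5% and 22.6% at P0, and most of that difference was the feature named Dym (1.41% and 10.7% at P10). Reads per library were 12818981 and 8495567 at P0 and 12819126 and 16599495 at P10, within a range of 8394219 to 16599495 over the series. The label of an epithelial-like line was checked against 6 epithelial markers. Of these, Cldn4 was not matched, Krt18 and Krt19 had at most 1.69 normalised reads in any library, and only the E-cadherin gene Cdh1 was above the limit, with 200.3 and 280.3 normalised reads at P0 and 81.8 and 337 at P10. Krt8 had at most 4.95 in any library, and Epcam had 4.36 and 2.87 at P0 and 11.8 and 10.9 at P10. Of the fibroblast and smooth muscle markers Dcn, a small matrix proteoglycan, was the most abundant, with 5119 and 4943 at P0 and 3426 and 2937 at P10, while Thy1 was at 0 in all 10 libraries and Col1a2 had at most 3.37. Thus most defining transcripts of epithelia were low or absent at both passages.

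Because of the distance between the P10 libraries, a change was counted as shared only when both P10 libraries lay at least 2-fold above, or at least 2-fold below, both P0 libraries. By this description, which carries no test, 362 features (2.68%) were higher in both P10 libraries and 464 (3.43%) were lower in both. P10 replicate 1 taken by itself was 2-fold above both P0 libraries at 1476 features and replicate 2 at 766, so the shared features were 24.5% of the first set and 47.3% of the second. On the lower side replicate 1 had 1532 and replicate 2 had 1079, of which the shared features were 30.3% and 43.0%. Only 31 features moved 2-fold in opposite directions, 23 of them higher in replicate 1. A further 1091 features were 2-fold higher and 1060 lower in replicate 1 with no such change in replicate 2, and the reverse held for 396 and 592 features.

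**Figure D1:**
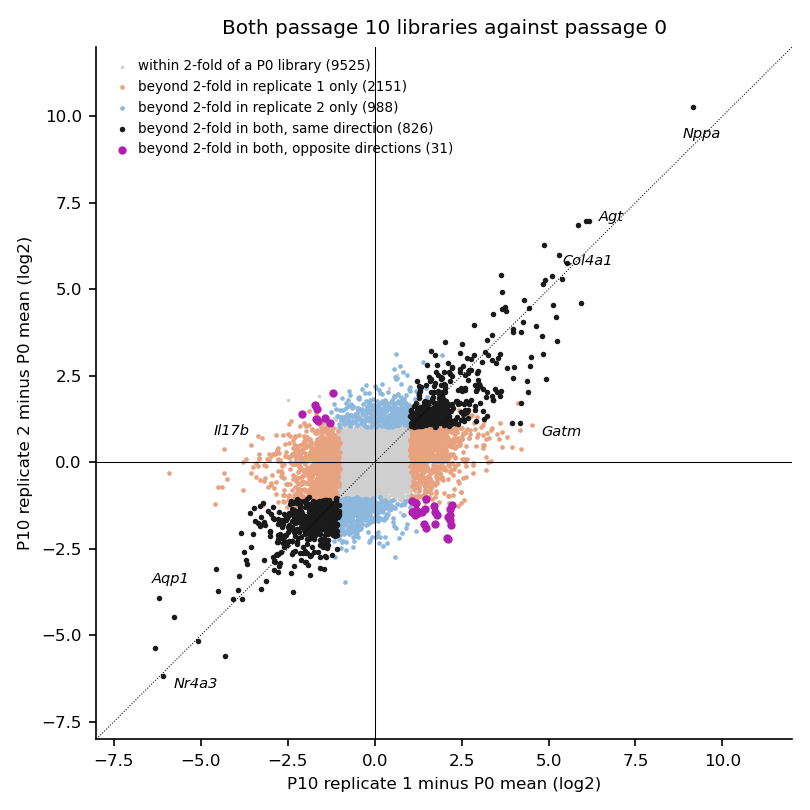
Each point is 1 of 13521 features, with the log2 difference from the P0 mean in P10 replicate 1 on the horizontal axis and in P10 replicate 2 on the vertical axis. Black points (826) lay at least 2-fold beyond both P0 libraries in both P10 libraries, orange and blue points in 1 library only, and purple points (31) in opposite directions; the black points run along the diagonal from Nr4a3 and Aqp1 to Nppa.

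The limma test, which pools 1 spread per gene over the 5 passages, called 1186 genes higher (8.77%) and 1115 lower (8.25%) at P10 at an adjusted p under 0.05. Of the 362 features separated upward, 342 were among the called genes, and 433 of the 464 separated downward. The other 844 rises and 682 falls were called without a 2-fold gap, and in none of the called genes did the P0 and P10 values overlap. A lack of overlap was common, with both P10 libraries higher at 28.3% of all features and lower at 26%. Since the spread at P10 was larger than elsewhere, a fit with a weight per passage was run beside it. It called 800 genes, of which 789 were in the main set, and among the separated and called genes it kept 246 rises and 243 falls. The count of called genes was 315 without P0 replicate 1 and 639 without P0 replicate 2, 1395 and 1398 without P2 replicate 1 or 2, 1332 and 1334 without P4 replicate 1 or 2, and 4738 without P10 replicate 2. A fit on only the 4 libraries compared called 49. In all, 153 rises and 133 falls were called however 1 of the 10 libraries was left out. Below, "rose" and "fell" mean that the gene passed the main limma test, values are normalised reads in replicates 1 and 2 in that order, log2 changes are on log2(value + 1) with their standard error (SE), and genes outside the naming rule were picked after their values were seen. The share beside a list count is to be read against 8.77% higher and 8.25% lower over all features. These are bulk libraries, so fewer cells of a kind and less RNA per cell cannot be told apart in any of the falls.

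The 15 genes with the widest gap upward included 3 precursors of secreted peptides, 2 chains of basement membrane collagen and a fatty acid receptor. Nppa encodes the precursor of atrial natriuretic peptide, a hormone of heart muscle. It had 8.71 and 1.44 normalised reads at P0 and 2795 and 5958 at P10 (log2 change 9.71, SE 0.62, adjusted p = 8.13e-05), so that the lower P10 library was more than 8 log2 units above the higher P0 library. Nppb, the gene of the related B-type peptide, had 126 and 122 normalised reads at P0 and 1599 and 3811 at P10 (log2 change 4.30, SE 0.46, adjusted p = 0.00123). For both peptides replicate 2 was the higher P10 library by more than 1 log2 unit, and neither P10 value came near the P0 values. Agt encodes angiotensinogen, the precursor of the angiotensins. It was at 0 reads in both P0 libraries and had 70.04 and 124 at P10. With P0 set to a floor of 3 reads in each library, P10 was at least 28.0-fold higher.

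Type IV collagen, the network-forming collagen of basement membranes, was among these genes with both of its commonest chains. Col4a1 had 80.1 and 66.1 normalised reads at P0 and 2547 and 3108 at P10 (log2 change 5.25, SE 0.18, adjusted p = 5.84e-06), the smallest adjusted p of any gene named here. Its partner Col4a2 had 5.23 and 4.31 at P0 and 76.8 and 129 at P10 (log2 change 4.13, SE 0.32, adjusted p = 0.000241). In both genes the 2 P10 libraries were close to each other beside the distance to P0. Dpt, which encodes the matrix protein dermatopontin, had 64.5 and 44.6 normalised reads at P0 and 1047 and 901 at P10 (log2 change 4.15, SE 0.23, adjusted p = 6.71e-05). Adamtsl2, a secreted glycoprotein that binds microfibrils, had 1 read at P0 in all and 327 at P10, a ratio of normalised reads of 244 with an exact 95% counting interval of 43.6 to 9684, which covers counting error only.

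Among scavenger receptors and lipid enzymes, Cd36, a scavenger receptor that takes up long-chain fatty acids, had 48.8 and 71.9 normalised reads at P0 and 2103 and 1394 at P10 (log2 change 4.83, SE 0.25, adjusted p = 4.67e-05). Acoxl, a relative of the peroxisomal acyl-CoA oxidases, had 126 and 71.9 normalised reads at P0 and 4438 and 5199 at P10 (log2 change 5.64, SE 1.48, adjusted p = 0.0332). Stab2, a scavenger receptor for hyaluronan, had 294 and 177 at P0 and 6604 and 8065 at P10 (log2 change 4.995, SE 1.38, adjusted p = 0.0394). These 2 genes stood apart from the other 13 in their course, since P6 replicate 1 was at 68.1 and 137 while P6 replicate 2 was at 4593 and 6829. The calls of Acoxl and Stab2 were lost without either replicate of P0 (adjusted p = 0.144 and 0.162 for Acoxl, 0.158 and 0.18 for Stab2), of P2 (0.0598 and 0.0598, 0.0686 and 0.0685) or of P4 (0.0608 and 0.0607, 0.069 and 0.0689). Without P10 replicate 1 both were lost as well (0.0561 for Acoxl, 0.0635 for Stab2), and Stab2 without P10 replicate 2 (0.0528).

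The remaining wide rises were in genes of signalling, glutathione breakdown and transcription. Rxfp1, the relaxin receptor, had 8.71 and 11.5 normalised reads at P0 and 275 and 169 at P10 (log2 change 4.30, SE 0.28, adjusted p = 8.13e-05), here with replicate 1 the higher. Pde2a, a phosphodiesterase of cyclic nucleotides, had 18.3 and 25.9 at P0 and 354 and 306 at P10 (log2 change 3.86, SE 0.24, adjusted p = 8.13e-05). Ggt1, a surface enzyme that breaks down glutathione, had 3.48 and 8.62 at P0 and 128 and 168 at P10 (log2 change 4.49, SE 0.42, adjusted p = 0.000635). The transcription factor gene Sox8 had 6.10 and 2.87 at P0 and 81.8 and 74.1 at P10 (log2 change 3.91, SE 0.46, adjusted p = 0.00166). All 4 had both P10 libraries within 1 log2 unit of each other. Isg15, a ubiquitin-like protein of the interferon response, had only 1 read over both P0 libraries and 71 over both P10 libraries, so that normalised reads stood at 53.1 to 1 (counting interval 9.22 to 2126). Apart from Acoxl and Stab2, the rises of this set passed in all 10 fits lacking 1 library, and all 15 passed with a weight per passage.

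The 15 genes with the widest gap downward were led by immediate early transcription factors. Nr4a3, an orphan nuclear receptor, had 405 and 417 normalised reads at P0 and 5.06 and 4.68 at P10 (log2 change -6.13, SE 0.47, adjusted p = 0.000237). Its relative Nr4a1 had 792 and 703 at P0 and 8.44 and 17.2 at P10 (log2 change -5.83, SE 0.35, adjusted p = 7.75e-05). Fos, a subunit of the AP-1 factor, had 1129.8 and 1082 at P0 and 19.4 and 48.4 at P10 (log2 change -5.12, SE 0.39, adjusted p = 0.000232). The fourth, Egr2, a zinc finger factor, had 171 and 103 at P0 and 18.6 and 20.3 at P10 (log2 change -2.71, SE 0.32, adjusted p = 0.00166). In Nr4a3 and Egr2 the P10 libraries were nearly level, whereas Nr4a1 and Fos were about 1 log2 unit lower in replicate 1.

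Several of the wide falls were in secreted proteins and enzymes of the matrix. Thbs1, the matricellular protein thrombospondin, had 12125 and 10022 normalised reads at P0 and 719 and 855 at P10 (log2 change -3.81, SE 0.19, adjusted p = 4.67e-05). Efemp1, a fibulin, had 4275 and 4080.2 at P0 and 602 and 462 at P10 (log2 change -2.98, SE 0.17, adjusted p = 6.71e-05). Sulf2, which removes sulfate groups from heparan sulfate outside the cell, had 964 and 668 at P0 and 56.5 and 50.7 at P10 (log2 change -3.88, SE 0.23, adjusted p = 6.71e-05). Igfbp4, a binding protein that sequesters insulin-like growth factors, had 5475 and 3753 at P0 and 197 and 344 at P10 (log2 change -4.11, SE 0.33, adjusted p = 0.000304). The 2 P10 libraries of Thbs1, Efemp1 and Sulf2 lay close together, and replicate 1 was the lower in Igfbp4. At the cell edge, Dsp, the desmoplakin that ties desmosomes to intermediate filaments, had 1295 and 989 at P0 and 129.9 and 103 at P10 (log2 change -3.28, SE 0.20, adjusted p = 8.13e-05). Zyx, zyxin of focal adhesions, had 421 and 374 at P0 and 56.5 and 79.6 at P10 (log2 change -2.55, SE 0.25, adjusted p = 0.000883). Aqp1, a water channel, had 625 and 773 at P0 and 8.44 and 44.5 at P10 (log2 change -5.07, SE 0.61, adjusted p = 0.00183). Of the 15 falls Aqp1 had the P10 libraries furthest apart, with replicate 1 the lower.

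The other 4 wide falls were in Gpr133, an adhesion-type G protein-coupled receptor (426 and 348 at P0 and 50.6 and 43.7 at P10, log2 change -3.01, SE 0.30, adjusted p = 0.000903), in the transcription factor Zfhx3 (382 and 348 at P0 and 54.8 and 47.6 at P10, log2 change -2.81, SE 0.31, adjusted p = 0.00129), in Pdzd2, a protein of PDZ domains (343 and 290.3 at P0 and 54.004 and 59.3 at P10, log2 change -2.46, SE 0.24, adjusted p = 0.000857), and in Ahdc1, a protein with AT-hook motifs (224 and 151 at P0 and 29.5 and 32.8 at P10, log2 change -2.52, SE 0.35, adjusted p = 0.00317). All 15 falls passed whichever library was left out and with a weight per passage. In the fit on only the 4 libraries compared, 13 of the 15 rises and 10 of the 15 falls passed.

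**Figure D2:**
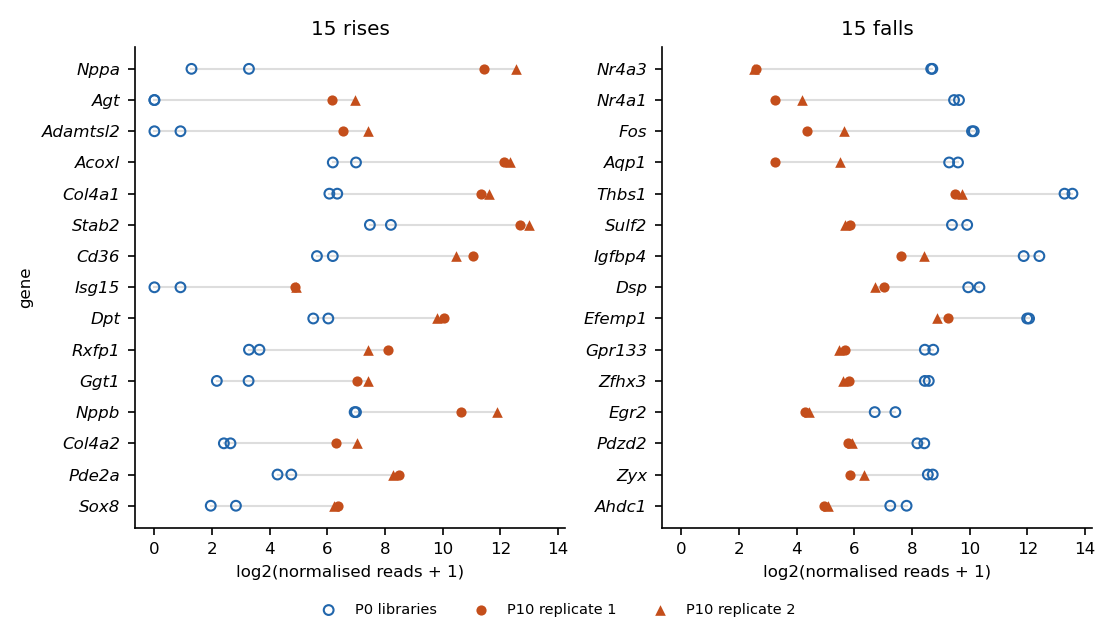
The 15 rises (left) and 15 falls (right) with the widest gap between the nearest P0 and P10 libraries are shown on the log2(normalised reads + 1) axis, with open blue circles for the 2 P0 libraries, filled circles for P10 replicate 1 and triangles for P10 replicate 2. That the P10 libraries lie on 1 side of both P0 libraries in every row follows from how the genes were chosen. The widest distance between the P10 libraries is that of Aqp1.

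Cholesterol synthesis genes were higher at P10 in both libraries. Of the 30 genes of sterol synthesis and its control that were tested, 17 rose (56.7%, against 8.77% of all features) and 2 fell (6.67%), and 13 were separated by 2-fold. The median log2 change was 1.12 (0.77 in P10 replicate 1 and 1.34 in replicate 2), where the median of all 13521 features was 0.0022 (-0.038 and 0.066). Hmgcs1, an enzyme at the start of sterol synthesis, had 1234 and 1309 normalised reads at P0 and 5091 and 7749 at P10 (log2 change 2.30, SE 0.25, adjusted p = 0.00123). In the next steps Idi1, the isopentenyl diphosphate isomerase, had 1026 and 1128 at P0 and 8386 and 5542 at P10 (log2 change 2.66, SE 0.22, adjusted p = 0.00037). Fdft1, squalene synthase, had 799.6 and 808 at P0 and 2591 and 2268 at P10 (log2 change 1.59, SE 0.15, adjusted p = 0.000855). Along the later sterol branch Msmo1, a methylsterol oxidase, had 1183 and 1223 at P0 and 4605 and 4922 at P10 (log2 change 1.98, SE 0.16, adjusted p = 0.000304). Nsdhl had 276 and 270.2 at P0 and 1865 and 959 at P10 (log2 change 2.29, SE 0.31, adjusted p = 0.00298). Sc5d, a sterol desaturase, had 1218 and 1190 at P0 and 4825 and 4181 at P10 (log2 change 1.90, SE 0.17, adjusted p = 0.000541). Insig1, which retains the sterol-regulated transcription factor in the endoplasmic reticulum, had 686 and 678 at P0 and 2445 and 2490.3 at P10 (log2 change 1.85, SE 0.16, adjusted p = 0.000381). Msmo1 and Insig1 were nearly level in the 2 P10 libraries, Idi1 and Nsdhl were higher in replicate 1 and Hmgcs1 in replicate 2.

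The pathway was not uniform between the P10 libraries, and replicate 1 was the higher in 7 of the 30 genes. The 2 genes that fell were Abca1, a cholesterol exporter (7787 and 7170.2 at P0 and 3185 and 4782 at P10, log2 change -0.94, SE 0.22, adjusted p = 0.0224), and Scap, the escort of the sterol-regulated factor (1221 and 889.6 at P0 and 477 and 648 at P10, log2 change -0.91, SE 0.25, adjusted p = 0.0408). Abca1 and Scap were each lost in 6 and 7 of the 10 fits that left out 1 library, with the highest adjusted p at 0.158 and 0.267, both without P0 replicate 1. Of the 17 rises, 8 passed in every fit without 1 library and 13 with a weight per passage. The count of genes called in either direction was 8 without P0 replicate 1 and 8 without P0 replicate 2.

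Cd36, Fabp4 and Acsl1, genes of fatty acid uptake and activation, rose, while the list of fatty acid synthesis, uptake and oxidation as a whole did not lie to 1 side. Of its 44 tested members 8 rose and 4 fell (18.2% and 9.09%), with a median of -0.04 (-0.21 in P10 replicate 1 and 0.22 in replicate 2). Beside Cd36, the fatty acid binding protein Fabp4 had 19.2 and 20.1 normalised reads at P0 and 141 and 130.3 at P10 (log2 change 2.73, SE 0.22, adjusted p = 0.000304). The acyl-CoA synthetase Acsl1 had 1019 and 957 at P0 and 2234 and 2045 at P10 (log2 change 1.11, SE 0.16, adjusted p = 0.0037). Lpl, the lipoprotein lipase that frees fatty acids outside the cell, fell from 5947 and 4411 to 2008 and 1853 (log2 change -1.41, SE 0.18, adjusted p = 0.00243). All 4 genes passed in each fit without 1 library. The calls came to 4 without P0 replicate 1 and 4 without P0 replicate 2.

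DNA replication genes were higher in both P10 libraries. Of 47 tested, 31 rose (66%) and none fell, 42 were above the P0 mean in P10 replicate 1 and 45 in replicate 2, and the median was 0.96 (0.73 in P10 replicate 1 and 1.08 in replicate 2). Only 8 were separated by 2-fold. Rrm2, the regulated subunit of ribonucleotide reductase, had 586 and 615 normalised reads at P0 and 2144 and 3469 at P10 (log2 change 2.18, SE 0.25, adjusted p = 0.00164). The large subunit Rrm1 had 1338 and 1454 at P0 and 4071 and 3339 at P10 (log2 change 1.40, SE 0.18, adjusted p = 0.00222). Pold2, a subunit of DNA polymerase delta, had 548 and 552 at P0 and 1519 and 1408 at P10 (log2 change 1.41, SE 0.17, adjusted p = 0.00201). Dut, which removes dUTP, had 530.5 and 538 at P0 and 1256 and 1473 at P10 (log2 change 1.35, SE 0.18, adjusted p = 0.0027). Mcm4, part of the replicative helicase, had 1486 and 1531 at P0 and 3457 and 3859.9 at P10 (log2 change 1.28, SE 0.17, adjusted p = 0.00271). In each of these 5 genes both P10 libraries were more than 2-fold above both P0 libraries. Only those 5 passed in every fit without 1 library, the count of called members was 6 without P0 replicate 1 and 10 without P0 replicate 2, and 11 of the 31 passed with a weight per passage.

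Mitotic genes were higher too, with replicate 1 the higher P10 library in 24 of 39. Of those tested 23 rose (59%) and none fell, 15 were separated by 2-fold, and the median was 1.15 (1.33 in P10 replicate 1 and 0.95 in replicate 2). Pttg1, securin, had 264 and 308 normalised reads at P0 and 828 and 913 at P10 (log2 change 1.61, SE 0.17, adjusted p = 0.00109). Bub1b, a kinase of the spindle checkpoint, had 454 and 412 at P0 and 1287 and 1091 at P10 (log2 change 1.45, SE 0.17, adjusted p = 0.00193). Ccnb2, a mitotic cyclin, had 929 and 881 at P0 and 3916 and 2464 at P10 (log2 change 1.78, SE 0.22, adjusted p = 0.00194). Racgap1, part of the central spindle, had 865 and 934 at P0 and 3214 and 2509 at P10 (log2 change 1.66, SE 0.20, adjusted p = 0.00198). Pttg1 was level in the P10 libraries, while Prc1, a crosslinker of spindle microtubules, was far from level with 2087 and 2047 at P0 and 12849 and 5684 at P10 (log2 change 2.05, SE 0.34, adjusted p = 0.00644) and was lost without P0 replicate 1 or 2 (adjusted p = 0.0651 and 0.0507). The mitotic list kept 21 of its 23 rises with a weight per passage, and the count of called members was 7 without P0 replicate 1 and 13 without P0 replicate 2.

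Genes that restrain the cell cycle, together with G1 cyclins and p53 targets, lay more often on the lower side. Of 27 tested, 7 fell (25.9%, against 8.25% of all features) and 3 rose (11.1%), with a median of -0.19 (-0.46 in P10 replicate 1 and -0.13 in replicate 2). Tp53inp1, a p53-induced protein, had 469.5 and 510.2 normalised reads at P0 and 81.01 and 113 at P10 (log2 change -2.34, SE 0.22, adjusted p = 0.00067). The antiproliferative Btg1 had 861 and 622 at P0 and 177 and 227 at P10 (log2 change -1.86, SE 0.22, adjusted p = 0.00169). Sesn2, a stress-induced inhibitor of mTOR complex signalling, had 438 and 365 at P0 and 48.9 and 97.6 at P10 (log2 change -2.51, SE 0.31, adjusted p = 0.00206). Cdk6, which on the contrary drives G1, also fell, from 2112 and 1989 to 632 and 486 (log2 change -1.88, SE 0.24, adjusted p = 0.00229). Each of these 4 falls passed in every fit without 1 library. The D-type cyclins went opposite ways. Ccnd1 had 443 and 339 at P0 and 937 and 918 at P10 (log2 change 1.26, SE 0.27, adjusted p = 0.0172). Ccnd2 had 472 and 326 at P0 and 127 and 120.2 at P10 (log2 change -1.66, SE 0.26, adjusted p = 0.00547), where Ccnd1 was lost without P0 replicate 1 or 2 (adjusted p = 0.0762 and 0.124) and Ccnd2 without P0 replicate 1 (0.0658). The number called was 4 without P0 replicate 1 and 5 without P0 replicate 2. Among 30 apoptosis regulators 5 rose (16.7%) and 2 fell (6.67%). Bcl2l11, the death-promoting BIM, had 829 and 829 at P0 and 213 and 257 at P10 (log2 change -1.82, SE 0.17, adjusted p = 0.000755). Cflar, an inhibitor of caspase activation at death receptors, had 576 and 543 at P0 and 1599 and 1391 at P10 (log2 change 1.41, SE 0.15, adjusted p = 0.00123). The apoptosis count was 2 without P0 replicate 1 and 3 without P0 replicate 2.

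**Figure D3:**
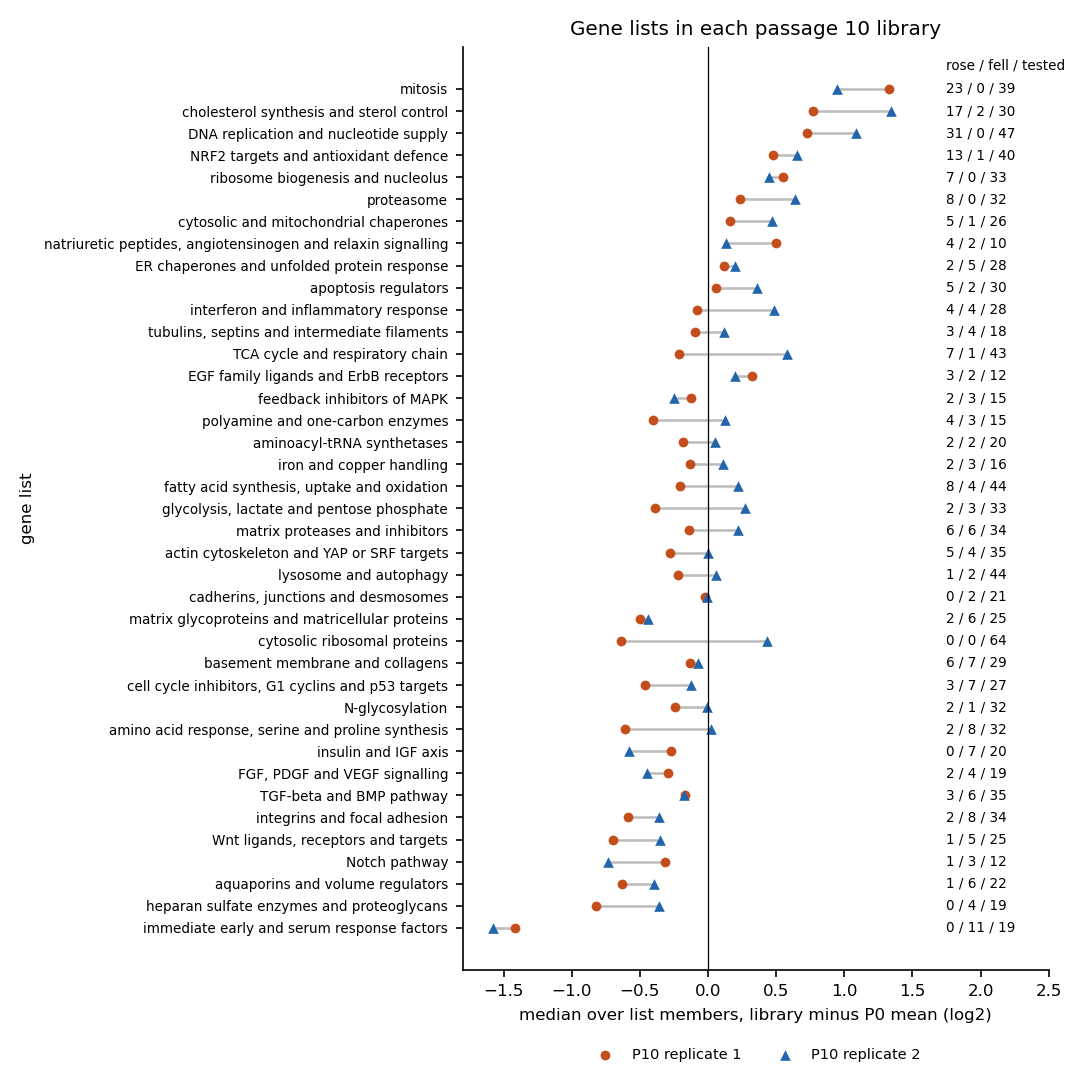
For each of 39 gene lists with at least 10 tested members, the median log2 difference from the P0 mean is given for P10 replicate 1 (circles) and P10 replicate 2 (triangles), with the number of members that rose, fell and were tested at the right. Mitosis, sterol and replication lists lie highest in both libraries and immediate early genes lowest, while the circles and triangles of ribosomal proteins and of the respiratory chain lie on opposite sides of 0.

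Immediate early and serum response factors showed the lowest median of all lists, at -1.39 (-1.42 in P10 replicate 1 and -1.58 in replicate 2). Of 19 tested, 11 fell (57.9%) and none rose, 10 were separated by 2-fold, and 1 member in each P10 library was above the P0 mean. Beyond the genes already given, the AP-1 subunit Fosb had 233 and 175 normalised reads at P0 and 5.06 and 4.68 at P10 (log2 change -5.11, SE 0.56, adjusted p = 0.00134). Fosl2 had 1355 and 1128 at P0 and 224 and 350.4 at P10 (log2 change -2.14, SE 0.23, adjusted p = 0.00122). Egr1, the prototype of its family, had 564 and 285 at P0 and 109 and 40.6 at P10 (log2 change -2.57, SE 0.48, adjusted p = 0.0102) but did not pass without P0 replicate 1 (adjusted p = 0.105). Egr1 and Egr2 also differed between the P0 libraries, replicate 1 being the higher. In this list the count was 6 without P0 replicate 1, and 8 of the 11 passed with a weight per passage.

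Among growth factors, the EGF-family ligands Nrg4 and Ereg and the FGF ligand Fgf7 rose in both P10 libraries, and Egf and Fgf2 fell in both. The call of Egf did not hold with a weight per passage. It was also lost without any 1 of the P0, P2 and P4 libraries and without P10 replicate 2. Of the EGF family, the ligand Nrg4 had 37.5 and 25.9 normalised reads at P0 and 908 and 401 at P10 (log2 change 4.23, SE 0.37, adjusted p = 0.000494). The ligand Ereg, epiregulin, had 259.6 and 214 at P0 and 1895 and 1128 at P10 (log2 change 2.63, SE 0.39, adjusted p = 0.00433). Erbb2, a receptor of that family, had 430.3 and 303 at P0 and 81.8 and 165 at P10 (log2 change -1.63, SE 0.34, adjusted p = 0.014), a call lost without P0 replicate 1 (adjusted p = 0.129). Nrg4 and Ereg were higher in P10 replicate 1 than in replicate 2, and both passed in every fit without 1 library. In the list as a whole 3 of 12 rose (25%) and 2 fell (16.7%), and the count of called members was 2 without P0 replicate 1. Egfr itself was low, with 3.48 and 7.19 at P0 and 21.9 and 27.3 at P10 (log2 change 2.07, SE 0.40, adjusted p = 0.0113), and was not called without P0 replicate 1 (0.0987).

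Of the FGF, PDGF and VEGF list 2 of 19 rose (10.5%) and 4 fell (21.1%). Fgf7, a ligand made by stromal cells, had 203 and 264 normalised reads at P0 and 3244 and 1531 at P10 (log2 change 3.26, SE 0.33, adjusted p = 0.000952). Fgfr2, whose epithelial form is its receptor, had 24.4 and 33.1 at P0 and 169.6 and 202 at P10 (log2 change 2.66, SE 0.39, adjusted p = 0.00423). Which form of Fgfr2 was present cannot be read from gene totals. Fgf2, a ligand without a signal peptide, fell from 1680.3 and 1137 to 262 and 364 (log2 change -2.16, SE 0.24, adjusted p = 0.00138), and Nrp2, a coreceptor of VEGF and semaphorins, from 1546 and 1087 to 373 and 375 (log2 change -1.79, SE 0.23, adjusted p = 0.00225). Fgfr2 did not pass without P0 replicate 1 (adjusted p = 0.0549) or with a weight per passage (0.0522), and the count of called members was 3 without P0 replicate 1 and 10 without P10 replicate 2. Pdgfra, a receptor for platelet-derived growth factor, had 1605 and 1429 at P0 and 527 and 826 at P10 (log2 change -1.20, SE 0.23, adjusted p = 0.0111) and was lost without P0 replicate 1 or 2 (0.106 and 0.0591).

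The insulin and IGF axis had falls only, 7 of 20 (35%), with a median of -0.26 (-0.27 in P10 replicate 1 and -0.58 in replicate 2). Besides Igfbp4, they included the receptor Igf1r with 2025 and 2479 normalised reads at P0 and 685 and 521 at P10 (log2 change -1.91, SE 0.22, adjusted p = 0.00154), the adaptor Irs1 with 617 and 605 at P0 and 226 and 211 at P10 (log2 change -1.48, SE 0.21, adjusted p = 0.00345) and the transcription factor Foxo1, which insulin signalling holds out of the nucleus, with 324 and 213 at P0 and 61.6 and 46.8 at P10 (log2 change -2.27, SE 0.31, adjusted p = 0.00319). Stc2, stanniocalcin, which blocks the release of IGF from its binding proteins, had 162 and 154 at P0 and 8.44 and 9.36 at P10 (log2 change -4.01, SE 0.45, adjusted p = 0.00153). In Igf1r, Irs1, Foxo1 and Stc2 both P10 libraries were 2-fold or more below both P0 libraries, and 5 falls, those 4 and Igfbp4, passed in every fit without 1 library.

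Developmental signalling lists had more falls than rises, in small numbers. Of the Wnt list 5 of 25 fell (20%) and 1 rose (4%), with a median of -0.47 (-0.70 in P10 replicate 1 and -0.35 in replicate 2). The receptor Fzd7 had 206 and 89.1 normalised reads at P0 and 8.44 and 31.997 at P10 (log2 change -2.95, SE 0.63, adjusted p = 0.0158). The nuclear factor Tcf7l2 had 520.03 and 543 at P0 and 174 and 159 at P10 (log2 change -1.67, SE 0.30, adjusted p = 0.00911). Both did not pass without P0 replicate 1 (adjusted p = 0.142 and 0.0754), and Tcf7l2 also without P0 replicate 2 (0.065). The Wnt count was 1 without P0 replicate 1 and 2 without P0 replicate 2. Of the Notch list 3 of 12 fell (25%) and 1 rose (8.33%). All 3 that fell were receptors, among them Notch1 with 142 and 96.3 at P0 and 16.03 and 36.7 at P10 (log2 change -2.22, SE 0.45, adjusted p = 0.0129). The target gene Hes1 had 89.7 and 87.7 at P0 and 177 and 185 at P10 (log2 change 1.02, SE 0.20, adjusted p = 0.011). Hes1 was lost without P0 replicate 1 or 2 (0.0843 and 0.0715), Notch1 likewise (0.12 and 0.0529), and the Notch count was 0 without P0 replicate 1, 2 without P0 replicate 2 and 8 without P10 replicate 1. Of the TGF-beta and BMP list 6 of 35 fell (17.1%) and 3 rose (8.57%), and the count of called members was 0 without P0 replicate 1 and 3 without P0 replicate 2. Tgfbr3, the coreceptor betaglycan, had 2638 and 2369.9 at P0 and 1160.2 and 1161 at P10 (log2 change -1.11, SE 0.16, adjusted p = 0.00389), a call lost without P0 replicate 1 (adjusted p = 0.0562). With a weight per passage the Wnt, Notch and TGF-beta lists kept 1, 0 and 2 calls.

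Feedback inhibitors of MAPK signalling moved both ways, with 2 rises (13.3%) and 3 falls (20%) of 15 and a median of 0.07 (-0.13 in P10 replicate 1 and -0.25 in replicate 2). Dusp4, a MAPK phosphatase, had 158 and 155 normalised reads at P0 and 78.5 and 90.5 at P10 (log2 change -0.88, SE 0.20, adjusted p = 0.0205). Spry4, a Sprouty inhibitor, had 7.84 and 1.44 at P0 and 27.002 and 25.8 at P10 (log2 change 2.56, SE 0.58, adjusted p = 0.02). Spry4 was lost without P0 replicate 2 (adjusted p = 0.0972), and Dusp4 without any 1 of the P0, P2 and P4 libraries (0.136 at most). None of the 5 calls held with a weight per passage, and the count was 1 without P0 replicate 1, 1 without P0 replicate 2, 2 without P2 replicate 1, 2 without P2 replicate 2, 2 without P4 replicate 1 and 2 without P4 replicate 2.

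Matrix genes changed in both directions. Of the list of basement membrane components and collagens 6 of 29 rose (20.7%) and 7 fell (24.1%), with a median of -0.15 (-0.13 in P10 replicate 1 and -0.07 in replicate 2). Apart from the type IV chains, 2 chains of type VI collagen, the beaded microfibrils, were higher, with Col6a1 at 419.9 and 305 normalised reads at P0 and 873 and 1308 at P10 (log2 change 1.58, SE 0.26, adjusted p = 0.00652) and Col6a2 at 54.9 and 50.3 at P0 and 163 and 284 at P10 (log2 change 2.01, SE 0.34, adjusted p = 0.00672). They was not called without P0 replicate 2 (adjusted p = 0.0597 and 0.053), and Col6a2 also without P0 replicate 1 (0.0612). The laminin chain Lamc1, shared by most laminins, had 10544 and 8179 at P0 and 3925 and 4511 at P10 (log2 change -1.14, SE 0.20, adjusted p = 0.00843) and was lost without P0 replicate 1 (0.0962). Called members numbered 3 without P0 replicate 1 and 4 without P0 replicate 2.

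Of the matrix glycoproteins and matricellular proteins 6 of 25 fell (24%) and 2 rose (8%). Fn1, fibronectin, the main ligand of several integrins, had 7604 and 5351 normalised reads at P0 and 1344 and 1287 at P10 (log2 change -2.28, SE 0.21, adjusted p = 0.000541). Cyr61, a matricellular integrin ligand, had 1036 and 878 at P0 and 161 and 222 at P10 (log2 change -2.33, SE 0.20, adjusted p = 0.000494). In both, as in Thbs1, the P10 libraries were close to each other and at least 2-fold below P0. The count of called members was 5 without P0 replicate 1. Among matrix proteases and their inhibitors 6 of 34 rose (17.6%) and 6 fell (17.6%). Mmp12, the macrophage elastase, had 133 and 158 at P0 and 1379.6 and 595 at P10 (log2 change 2.63, SE 0.34, adjusted p = 0.00225). Mmp2, a gelatinase that cleaves type IV collagen, had 10.5 and 7.19 at P0 and 52.3 and 85.1 at P10 (log2 change 2.81, SE 0.39, adjusted p = 0.00319). Adamts4, an aggrecanase, had 74.04 and 50.3 at P0 and 178 and 204 at P10 (log2 change 1.63, SE 0.25, adjusted p = 0.00461). Mmp14, the membrane protease that activates pro-MMP2, had 1374 and 844 at P0 and 394 and 458 at P10 (log2 change -1.34, SE 0.25, adjusted p = 0.00963) and was lost without P0 replicate 1 (adjusted p = 0.0841). The first 3 passed in every fit without 1 library, and the protease count was 3 without P0 replicate 1 and 5 without P0 replicate 2.

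Adhesion genes were lower on balance, but mostly by less than 2-fold. Of the integrin and focal adhesion list 8 of 34 fell (23.5%) and 2 rose (5.88%), 2 were separated by 2-fold, and the median was -0.38 (-0.59 in P10 replicate 1 and -0.36 in replicate 2). The fibronectin receptor chain Itga5 had 1233 and 832 normalised reads at P0 and 352 and 514 at P10 (log2 change -1.25, SE 0.24, adjusted p = 0.0115). Itga3, a laminin receptor chain, had 1767 and 1255 at P0 and 338 and 634 at P10 (log2 change -1.68, SE 0.33, adjusted p = 0.0115). The shared beta chain Itgb1 had 14044 and 11794 at P0 and 7288 and 6925 at P10 (log2 change -0.86, SE 0.19, adjusted p = 0.0176). The genes that rose were Ptk2, focal adhesion kinase, with 2109 and 2018 at P0 and 3116 and 3176 at P10 (log2 change 0.61, SE 0.15, adjusted p = 0.0276), and Lims1, an adaptor of the integrin-linked kinase, with 2287 and 2317 at P0 and 3503 and 3415 at P10 (log2 change 0.59, SE 0.15, adjusted p = 0.0325). The number called was 1 without P0 replicate 1, 4 without P0 replicate 2, 6 without P4 replicate 1 and 6 without P4 replicate 2, and Zyx was the only one to pass in every fit without 1 library. Itga5 and Itga3 did not pass without P0 replicate 1 (adjusted p = 0.112 and 0.114), Itgb1 without any 1 of the P0 and P4 libraries (0.155 at most), and Ptk2 and Lims1 without any 1 of the P0, P2 and P4 libraries (0.152 and 0.185 at most).

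Cadherins, junction proteins and desmosomal proteins gave 2 falls and no rise among 21 (9.52% lower), with a median of -0.07 (-0.02 in P10 replicate 1 and -0.01 in replicate 2) and a count of 4 without P10 replicate 1 and 5 without P10 replicate 2. They were Dsp, given above, and Ctnna2, an alpha catenin, with 379 and 481 normalised reads at P0 and 162 and 137 at P10 (log2 change -1.52, SE 0.20, adjusted p = 0.00243). Heparan sulfate enzymes and proteoglycans had 4 falls of 19 (21.1%), led by Sulf2, no rise, and a median of -0.68 (-0.82 in P10 replicate 1 and -0.36 in replicate 2), with a count of 1 without P0 replicate 1, 1 without P0 replicate 2, 2 without P4 replicate 1, 2 without P4 replicate 2, 7 without P10 replicate 1 and 12 without P10 replicate 2. Of the actin and YAP or SRF target list 5 of 35 rose (14.3%) and 4 fell (11.4%). Ezr, ezrin, which ties actin to the membrane, had 2349 and 2495 at P0 and 7369 and 4547 at P10 (log2 change 1.26, SE 0.24, adjusted p = 0.0105). Myl9, a myosin light chain of contractile fibres, had 60.98 and 58.9 at P0 and 13.5 and 15.6 at P10 (log2 change -1.97, SE 0.36, adjusted p = 0.00921). Ezr and Myl9 did not pass without P0 replicate 1 (adjusted p = 0.0979 and 0.0816) or replicate 2 (0.0646 and 0.0605), and the count of called members of the actin list was 0 without P0 replicate 1, 1 without P0 replicate 2, 5 without P2 replicate 1, 5 without P2 replicate 2, 5 without P4 replicate 1 and 5 without P4 replicate 2. Among tubulins, septins and intermediate filament genes 3 of 18 rose (16.7%) and 4 fell (22.2%). Tuba8, an alpha tubulin, had 103 and 77.6 at P0 and 288 and 268 at P10 (log2 change 1.62, SE 0.23, adjusted p = 0.00373). Plec, plectin, which links intermediate filaments to junctions, had 7428 and 4409 at P0 and 1158 and 1969 at P10 (log2 change -1.92, SE 0.32, adjusted p = 0.00656), where the call of Plec was lost without P0 replicate 1 (0.0699). The tubulin list counted 1 without P0 replicate 1 and 4 without P0 replicate 2.

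Antioxidant genes that the factor NRF2 controls were higher in part. Of 40 tested, 13 rose (32.5%) and 1 fell (2.5%), 7 were separated by 2-fold, and the median was 0.61 (0.48 in P10 replicate 1 and 0.65 in replicate 2). In P10 replicate 2 36 members were above the P0 mean and in replicate 1 22. Hmox1, haem oxygenase, had 406 and 381 normalised reads at P0 and 1834 and 2578 at P10 (log2 change 2.46, SE 0.30, adjusted p = 0.00194). For glutathione supply, Slc7a11, which imports cystine, had 422 and 503 at P0 and 2169 and 1497 at P10 (log2 change 1.96, SE 0.22, adjusted p = 0.00153). Gsr, glutathione reductase, had 618 and 578 at P0 and 1958 and 1570.2 at P10 (log2 change 1.55, SE 0.20, adjusted p = 0.00219). These 3 genes and Ggt1 were the ones that passed in every fit without 1 library, and the count of called members was 4 without P0 replicate 1 and 5 without P0 replicate 2. Gpx1, a glutathione peroxidase, had 303 and 345 at P0 and 917 and 2260.1 at P10 (log2 change 2.15, SE 0.45, adjusted p = 0.0153), with P10 replicate 2 far above replicate 1, and was not called without P0 replicate 1 or 2 (adjusted p = 0.119 and 0.0777).

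Genes of the amino acid response and of serine and proline synthesis lay lower mainly in P10 replicate 1. Of 32 tested 8 fell (25%) and 2 rose (6.25%), and the median was -0.25 (-0.61 in P10 replicate 1 and 0.02 in replicate 2). Replicate 1 was above replicate 2 in only 2 of the members. Shared falls were found in Stc2 and Sesn2, given above, and in Aldh18a1, the first enzyme of proline synthesis, with 160.3 and 124 normalised reads at P0 and 21.9 and 27.3 at P10 (log2 change -2.48, SE 0.30, adjusted p = 0.00201). Trib3, a pseudokinase induced when amino acids are short, had 1030.5 and 1061 at P0 and 246 and 601 at P10 (log2 change -1.44, SE 0.36, adjusted p = 0.0281) and was lost in 6 of the 10 fits without 1 library, the highest adjusted p being 0.147 without P0 replicate 1. In this list the count was 3 without P0 replicate 1, 4 without P0 replicate 2 and 16 without P10 replicate 2.

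In the endoplasmic reticulum list 5 of 28 fell (17.9%) and 2 rose (7.14%). Ern1, the stress sensor IRE1, had 495 and 466 normalised reads at P0 and 161 and 112 at P10 (log2 change -1.83, SE 0.28, adjusted p = 0.00471). Ero1l, an oxidase of disulfide formation, had 1169 and 897 at P0 and 443 and 390.2 at P10 (log2 change -1.30, SE 0.21, adjusted p = 0.0058). The chaperone Dnajb11 had 878 and 927 at P0 and 2201 and 1846 at P10 (log2 change 1.16, SE 0.19, adjusted p = 0.00658). All 3 did not pass without P0 replicate 1 (adjusted p = 0.0574, 0.0699 and 0.0712). Called members numbered 0 without P0 replicate 1, 3 without P0 replicate 2 and 13 without P10 replicate 2. Of the cytosolic and mitochondrial chaperones 5 of 26 rose (19.2%) and 1 fell (3.85%), with a median of 0.29 (0.16 in P10 replicate 1 and 0.47 in replicate 2). Stip1, which hands clients from HSP70 to HSP90, had 1760.4 and 1715 at P0 and 4214 and 3190.3 at P10 (log2 change 1.08, SE 0.19, adjusted p = 0.00733), a call lost without P0 replicate 1 or 2 (0.0696 and 0.0587). The chaperone count was 0 without P0 replicate 1 and 1 without P0 replicate 2. For the proteasome 8 of 32 rose (25%) and none fell, none of them by 2-fold in both libraries, and the count was 0 without P0 replicate 1, 0 without P0 replicate 2, 4 without P2 replicate 1, 4 without P2 replicate 2, 4 without P4 replicate 1 and 4 without P4 replicate 2. Psma2, a subunit of the core particle, had 1837 and 2126 at P0 and 7092 and 3677 at P10 (log2 change 1.37, SE 0.28, adjusted p = 0.0138), lost at 0.121 and 0.0672.

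Polyamine enzymes changed in both directions around ornithine decarboxylase. Odc1, which catalyses the first step, had 758 and 756 normalised reads at P0 and 2850.4 and 4170.5 at P10 (log2 change 2.19, SE 0.25, adjusted p = 0.00166). Azin1, the antizyme inhibitor that keeps ornithine decarboxylase from being degraded, had 441 and 365 at P0 and 81.8 and 119 at P10 (log2 change -2.01, SE 0.25, adjusted p = 0.00208). Downstream Sms, spermine synthase, had 389 and 394 at P0 and 1009 and 918 at P10 (log2 change 1.30, SE 0.17, adjusted p = 0.00242). Srm, spermidine synthase, had 249 and 141 at P0 and 32.1 and 60.9 at P10 (log2 change -2.06, SE 0.42, adjusted p = 0.0135). Thus Odc1 and Sms rose in both P10 libraries and Azin1 and Srm fell in both, the call of Srm being lost without P0 replicate 1 (adjusted p = 0.128). Of the whole polyamine and one-carbon list 4 of 15 rose (26.7%) and 3 fell (20%), and the count of called members was 3 without P0 replicate 1 and 4 without P0 replicate 2.

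Ribosome biogenesis genes had 7 rises among 33 (21.2%) and no fall, with a median of 0.45 (0.55 in P10 replicate 1 and 0.45 in replicate 2) that was close in the 2 P10 libraries. Nop56, a core protein of the particles that methylate ribosomal RNA, had 2078 and 2084 normalised reads at P0 and 4809 and 4323 at P10 (log2 change 1.13, SE 0.15, adjusted p = 0.00277) and was the one member to pass in every fit without 1 library. The calls came to 1 without P0 replicate 1, 1 without P0 replicate 2, 4 without P4 replicate 1, 4 without P4 replicate 2 and 14 without P10 replicate 2. Of the aquaporin and volume regulator list 6 of 22 fell (27.3%) and 1 rose (4.55%). Beside Aqp1, the kinase Wnk1, which senses chloride and cell volume, had 4794 and 3461 at P0 and 1618 and 970.04 at P10 (log2 change -1.70, SE 0.35, adjusted p = 0.0146), a call lost without P0 replicate 1 or 2 (adjusted p = 0.13 and 0.0539). The volume list counted 1 without P0 replicate 1, 1 without P0 replicate 2, 4 without P2 replicate 1, 4 without P2 replicate 2, 3 without P4 replicate 1, 3 without P4 replicate 2 and 13 without P10 replicate 2. Of the natriuretic peptide, angiotensinogen and relaxin list 4 of 10 rose (40%) and 2 fell (20%). The falls were in receptors of the natriuretic peptides, with Npr2 at 252 and 167 at P0 and 64.1 and 72.6 at P10 (log2 change -1.57, SE 0.31, adjusted p = 0.0121) and Npr1 at 42.7 and 30.2 at P0 and 12.7 and 4.68 at P10 (log2 change -2.07, SE 0.53, adjusted p = 0.0308). Neither fall held with a weight per passage. Npr2 was lost without P0 replicate 1 (0.118) and Npr1 in 5 of the 10 fits, the highest adjusted p being 0.198 without P0 replicate 1.

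The remaining lists are given by their counts, which depended on the libraries in the fit. Of the interferon and inflammatory genes 4 of 28 rose (14.3%) and 4 fell (14.3%), and the count was 1 without P0 replicate 1, 3 without P0 replicate 2, 3 without P2 replicate 1, 3 without P2 replicate 2, 3 without P4 replicate 1 and 3 without P4 replicate 2. For iron and copper handling 2 of 16 rose (12.5%) and 3 fell (18.8%), and the count was 1 without P0 replicate 1 and 1 without P0 replicate 2. Of the N-glycosylation genes 2 of 32 rose (6.25%) and 1 fell (3.12%), and the count was 1 without P0 replicate 1, 1 without P0 replicate 2, 1 without P2 replicate 1, 1 without P2 replicate 2, 1 without P4 replicate 1, 1 without P4 replicate 2 and 8 without P10 replicate 2. For lysosome and autophagy 1 of 44 rose (2.27%) and 2 fell (4.55%), and the count was 0 without P0 replicate 1, 0 without P0 replicate 2, 1 without P2 replicate 1, 1 without P2 replicate 2, 1 without P4 replicate 1, 1 without P4 replicate 2 and 18 without P10 replicate 2. Of the aminoacyl-tRNA synthetases 2 of 20 rose (10%) and 2 fell (10%), and the count was 0 without P0 replicate 1, 0 without P0 replicate 2, 1 without P2 replicate 1, 1 without P2 replicate 2, 1 without P4 replicate 1, 1 without P4 replicate 2 and 8 without P10 replicate 2. Dad1, a subunit of the oligosaccharyltransferase that attaches N-glycans, had 472 and 431 normalised reads at P0 and 963 and 919 at P10 (log2 change 1.06, SE 0.15, adjusted p = 0.00387) and passed in every fit without 1 library. Among markers of other cell types, the leukocyte integrin Itgax had only 1 read over both P0 libraries and 64 over both P10 libraries (47.8 to 1 in normalised reads, counting interval 8.28 to 1919). The summed leukocyte markers were at 49.7 and 61.8 normalised reads at P0 and 167 and 105 at P10. Cd14, Tyrobp and Cd3e had at most 1.12 in any library. Endothelial markers summed to 386 and 263 at P0 and 6674 and 8130 at P10, of which Stab2 was nearly all, while Cdh5 and Kdr stayed at or below 5.62 in each library and Pecam1 had 31.4 and 25.9 at P0 and 16.9 and 21.1 at P10.

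The P10 libraries parted in genes of translation and respiration, among other lists. The median difference of replicate 1 from replicate 2 was -1.15 for cytosolic ribosomal proteins and -0.52 for the respiratory chain, beside -0.65 for NRF2 targets, -0.62 for interferon genes, -0.59 for the amino acid response and -0.58 for sterol genes. Of 64 cytosolic ribosomal protein genes none was called in either direction by limma (6 at an unadjusted p under 0.05, 1 called by DESeq2 and 0 by edgeR on recovered reads), and the median was -0.13 (-0.64 in P10 replicate 1 and 0.43 in replicate 2). Only 14 lay above the P0 mean in replicate 1 against 62 in replicate 2. Together these genes took 3.53% of the normalised reads in P10 replicate 1 and 5.31% in replicate 2, with 4.13% and 4.65% at P0, and counts of ribosomal protein genes are uncertain where near-identical copies share reads. Without P10 replicate 2 the number called was 25, and without either P6 library it was 3. The respiratory chain and TCA cycle list had 7 rises (16.3%) and 1 fall (2.33%) of 43, and medians of opposite sign, -0.21 in replicate 1 and 0.58 in replicate 2. In each of the 7 rises the P10 libraries were less than 1 log2 unit apart. One was Ndufa6, a subunit of complex I, with 701 and 759 at P0 and 2221 and 1583 at P10 (log2 change 1.36, SE 0.21, adjusted p = 0.00542), lost without P0 replicate 1 (adjusted p = 0.0645). The count of called members was 0 without P0 replicate 1, 1 without P0 replicate 2, 4 without P2 replicate 1, 4 without P2 replicate 2, 4 without P4 replicate 1 and 4 without P4 replicate 2. Glycolysis and pentose phosphate genes showed the same split of medians, -0.39 and 0.27, with 2 rises (6.06%) and 3 falls (9.09%) of 33 and a count of 0 without P0 replicate 1, 2 without P0 replicate 2, 3 without P2 replicate 1, 3 without P2 replicate 2, 3 without P4 replicate 1, 3 without P4 replicate 2 and 10 without P10 replicate 2. Hif1a, the hypoxia-inducible factor, had 1483 and 1324 at P0 and 7209 and 3492 at P10 (log2 change 1.84, SE 0.30, adjusted p = 0.00579), lost without P0 replicate 1 or 2 (0.0554 and 0.0507).

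The single genes furthest apart between the P10 libraries were not called against P0. That could hardly be otherwise, since the distance they were picked for enters their spread in the test. It is thus no sign that they were level with P0, and in Gatm and Lck the P0 and P10 values did not overlap. Gatm, an enzyme of creatine synthesis, had 54.01 and 35.9 normalised reads at P0 and 1045 and 93.6 at P10, and its adjusted p against P0 was 0.0776. Cd84, an adhesion receptor of blood cells, had 482 and 356 at P0 and 3792 and 464 at P10, and Ptk2b, a kinase related to focal adhesion kinase, had 17127 and 11629.8 at P0 and 83744 and 14942 at P10. In these 3 genes replicate 1 was the high library, and in Cd84 and Ptk2b replicate 2 lay within 2-fold of both P0 libraries. Their values in the P6 libraries were 432 and 1230.2 for Gatm, 1852 and 6422 for Cd84 and 31383 and 101592 for Ptk2b. In the other direction Il17b, a cytokine, had 2389 and 4667 at P0 and 166 and 4373 at P10, Lck, a kinase of T cells, had 700.3 and 1855 at P0 and 46.4 and 493 at P10, and the feature named Dym took 9.20% and 13.5% of the normalised reads at P0 and 1.41% and 10.7% at P10. Here replicate 1 was the low library, and P6 replicate 2 was low as well, at 110.1 for Il17b, 34.8 for Lck and 1.15% for Dym. Hephl1, a copper oxidase, was an example of the 31 features with 2-fold moves in opposite directions, with 54.9 and 54.6 at P0 and 117 and 19.5 at P10. Gramd1a, a carrier of membrane cholesterol, was another, with 343 and 299 at P0 and 139 and 1275 at P10. Whether depth, library make-up or the cultures have a part in these differences was not tested. Nor was it tested whether the reads counted for Dym came from messenger RNA of that gene.

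**Figure D4:**
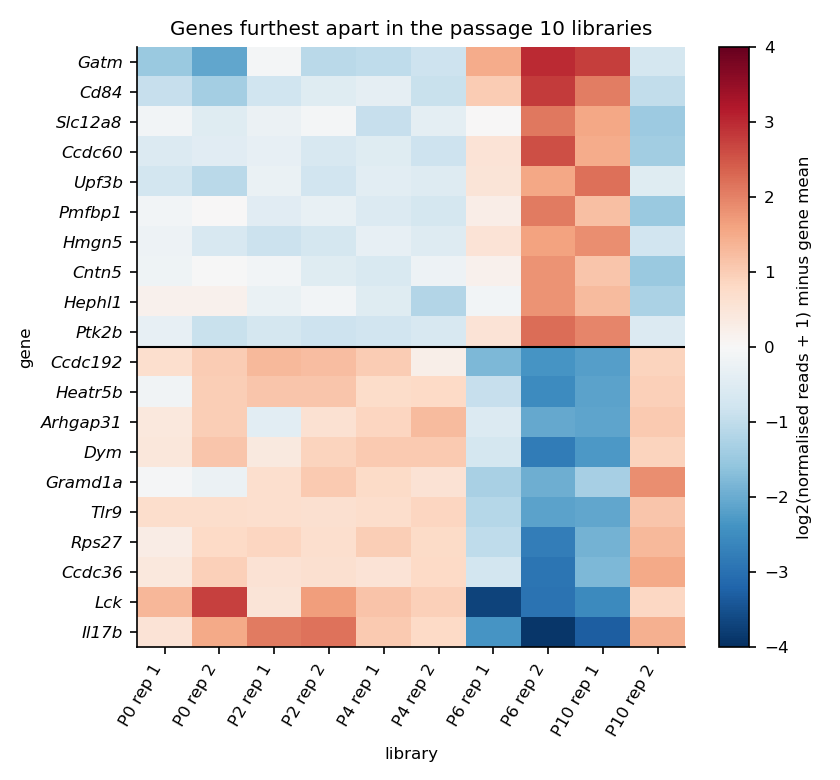
Rows are the 10 genes with the largest excess in P10 replicate 1 over replicate 2 (above the line) and the 10 with the largest excess in the other direction, and columns are the 10 libraries. Colour gives log2(normalised reads + 1) minus the gene's mean over the libraries. P10 replicate 1 shares its sign with P6 replicate 2 in each row, and P10 replicate 2 has the opposite sign.

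Far fewer genes were called between P10 and the later passages than between P10 and P0. At P10 against P2 84 genes were higher (0.621%) and 86 lower (0.636%), against P4 7 were higher (0.0518%) and 23 lower (0.17%), and against P6 none was called by limma in either direction, with 1273 (9.41%) at an unadjusted p under 0.05. These comparisons share the P10 libraries with each other and with the comparison to P0. Nppa was at 131 and 123 at P2 and was higher at P10 (log2 difference 4.99, SE 0.62, adjusted p = 0.00978). Cgnl1, a protein of epithelial junctions, had 97.6 and 103 at P0, 211 and 203 at P2 and 1059 and 793 at P10 (P10 against P2: log2 difference 2.14, SE 0.19, adjusted p = 0.00266). Adamtsl2 went from 7.29 and 14.5 to 91.98 and 170.1 (log2 difference 3.47, SE 0.47, adjusted p = 0.0152), Fgfr2 from 16.7 and 34.6 to 169.6 and 202 (log2 difference 2.89, SE 0.39, adjusted p = 0.0153) and Cidec, a protein of lipid droplets, from 401 and 368 to 853 and 841 (log2 difference 1.14, SE 0.16, adjusted p = 0.0172).

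Several genes that lay below their P2 level at P10 had been higher at P2 than at P0. Angpt4, an angiopoietin, had 742 and 789 at P0, 2117 and 2069 at P2 and 229.5 and 311 at P10 (log2 difference -2.97, SE 0.20, adjusted p = 0.000989). Serpinf1, pigment epithelium-derived factor, had 1892 and 1983, 5061 and 4993 and 765 and 1040.3 (log2 difference -2.49, SE 0.19, adjusted p = 0.00147), and Il1r2, a decoy receptor of interleukins, had 165 and 161, 311 and 274 and 32.1 and 41.4 (log2 difference -2.97, SE 0.21, adjusted p = 0.000989). These 3 genes also fell against P0, with log2 changes of -1.52, -1.12 and -2.13 (adjusted p = 0.00247, 0.00768 and 0.000883), where Serpinf1 was lost without P0 replicate 1 or 2 (0.0687 and 0.0613). Postn, periostin of the matrix, and C7, a complement component, were also high at P2 (739 and 626 and 482 and 554) and lower at P10 (100.4 and 72.6 and 86.1 and 78.8), where neither gene passed the test against P0 (adjusted p = 0.0728 and 0.155). Agt was likewise higher at P2 than at P0 and lower again at P10, but unlike Angpt4, Serpinf1 and Il1r2 it ended above P0. It had 818 and 734 at P2, 1448 and 1452 at P4 and 70.04 and 124 at P10 (P10 against P2: log2 difference -3.04, SE 0.35, adjusted p = 0.00687). Its P10 level was thus far above P0 and far below P4.

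The counts against P2 and P4 depended on single libraries. Against P2 the fit on all libraries called 170 genes, and refits called 54 without P0 replicate 1 and 54 without replicate 2, 21 and 5 without P2 replicate 1 and 2, 36 and 36 without P4 replicate 1 and 2, and 3500 without P10 replicate 2. Against P4 it called 30, and the same refits called 9 and 9, 8 and 8, 0 and 0, and 4094. Against P6 there were 2936 calls without P10 replicate 1 and 6 without P6 replicate 2. The genes with the smallest p against P6 were, on the higher side, the replication and cell cycle genes Cdca7 (393 and 340.4 at P6, 649 and 791 at P10) and Cdc6 (233 and 169.6, 381 and 440.1), the chemokine Cxcl1 (392 and 259.5, 653 and 1047), Fgfr2 (39.1 and 60.7, 169.6 and 202) and Ranbp1, a regulator of nuclear transport (1690.3 and 1316, 2499 and 2685). On the lower side were Efemp1 (1285 and 1259, 602 and 462), the filament protein gene Synm (804 and 861, 392 and 381), Egr2 (99.4 and 87.6, 18.6 and 20.3), Angpt4 (743 and 565, 229.5 and 311) and Il1r2 (95.5 and 88.8, 32.1 and 41.4). In each of these 10 genes both P10 libraries lay on 1 side of both P6 libraries, which adds no support, since the genes were picked for the smallest p. Their adjusted p ranged from 0.318 to 0.473.

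**Figure D5:**
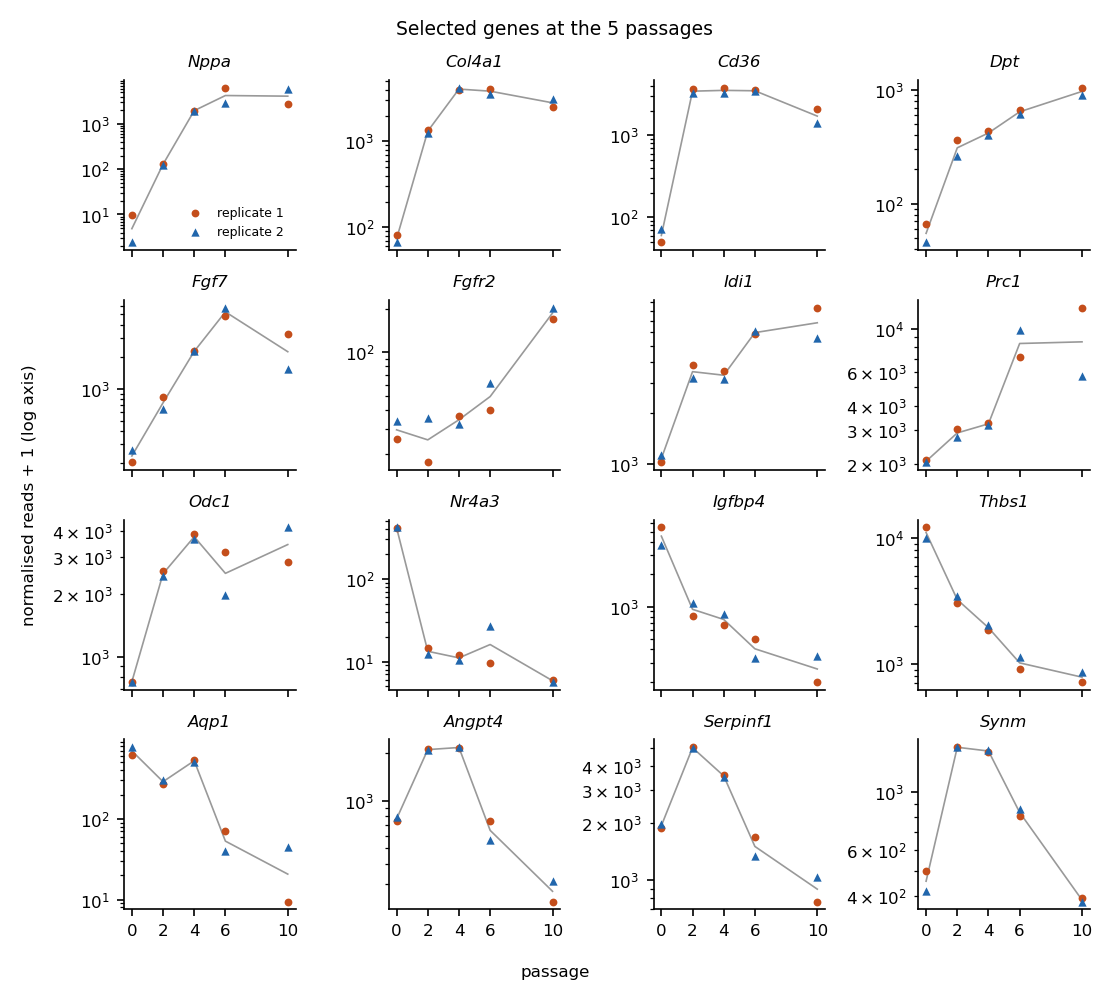
Normalised reads + 1 on a log axis are plotted against passage (0, 2, 4, 6 and 10) for 16 genes, with circles for replicate 1, triangles for replicate 2 and lines through the means of the log values. Nppa, Col4a1 and Cd36 reach their level before P10, Fgfr2 and Dpt are highest at P10, Nr4a3 is low from P2 on, and Angpt4, Serpinf1 and Synm peak at P2 and P4.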

How the data were processed

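RNA of CHO-K1 cells was depleted of ribosomal RNA with Ribo-Zero, made into libraries with the TruSeq Stranded mRNA LT kit and sequenced on a MiSeq, per the labels' protocols. The deposited table gives a signal per gene that the authors made from read counts by DESeq normalisation, per the submitters' processing notes, with no version. No aligner, counter or build is named, being not given in the sources used here. Values in a library were whole multiples of what 1 read is worth (0.780 to 1.44 normalised reads, all values within 0.001 of a whole read), so reads were recovered. Gene numbers were named from RefSeq (16386 of 20050 matched).

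Features with a mean of at least 10 were tested on log2(value + 1) with limma 3.58.1 (R 4.3.3, trended moderation, 1 mean per passage, 10 libraries, 5 residual degrees of freedom) at a Benjamini-Hochberg adjusted p of 0.05. The fit was tested on simulated data with the same spread at every passage. That trial cannot show how the fit behaves with the larger spread at P10. An exact permutation test of 2 against 2 cannot go below p = 0.333 and was not used. Alternatives were other pseudocounts, filters, scalings and weights, a replicate block, edgeR 4.0.16 and DESeq2 1.42.0 on the reads of 9 libraries (without P4 replicate 1, whose step is near 1), and fits without each library.

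The named genes are the 15 rises and 15 falls with the widest gap between the nearest P0 and P10 libraries (mean of at least 50, proper symbol, called), up to 4 members of each list with the smallest p, the 10 genes in each direction furthest apart between the P10 libraries, and the 5 in each direction with the smallest p against P2 and P6. Other list members, and the 16 genes plotted by passage, were chosen after their values were seen. The comparison and its gene lists (45 lists, 1487 entries, 1320 matched) were chosen with earlier results of these data known. Genome sequence was not used here.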

Additional observations from a re-analysis of the deposited data

How the results depend on the processing

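Of 166 named genes called at P10 against P0, 78 were called in each fit without 1 library, and none reversed under any alternative. In none of the 166 did the P0 and P10 values overlap, so leaving out 1 library could not reverse a direction. With a weight per passage 58 of the 166 lost their call, and with the P0 and P10 libraries alone 138 did. Over all features P10 against P0 gave 2301 called genes. With edgeR on recovered reads it gave 1294, with DESeq2 2133, with a weight per passage 800, with the P0 and P10 libraries alone 49, and without P6 replicate 2 and P10 replicate 1 together, a choice made after seeing the data, 6256. Leaving out 1 library gave 315 to 4738. The 826 separated genes became 7346 with any gap above 0 and 114 with a gap of 2 log2 units. Without 1 of the compared libraries they became 1090 to 3008, where leaving out a library can only keep or raise the number. P10 against P2 gave 170 calls, 40 with weights, 48 with the replicate block and 5 to 3500 without 1 library. P10 against P4 gave 30, 10 with weights, 7 with the block and 0 to 4094. P10 against P6 gave 0, with 0 to 2936 without 1 library. The cause of the moves in the counts of calls was not tested, except that leaving out libraries also removes residual degrees of freedom. Where a pair was reduced to 1 library, that library was assumed to vary like the others. Genes named for the distance between the P10 libraries reversed: Ccdc36 to 0.83, Ccdc60 to -0.89, Rps27 to 0.76 and Slc12a8 to -1.16 without P6 replicate 2 and P10 replicate 1 together, and Gramd1a to -1.20 without P10 replicate 2, against 1.99 without P10 replicate 1.

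The replicate numbers did not pair the samples: deviations of same-numbered libraries correlated at 0.068 between P0 and P10 and at -0.67 to 0.23 over all 10 pairs of passages. With the replicate block 888 genes were higher and 798 lower at P10 against P0. The median log2 change of all features lay between -0.038 and 0.066 over the settings. The planned search of promoters for motifs was not run, since promoter sequences were not used here.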
